A study of Mus musculus with 17 samples.

Results

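The genes described here lie within 20 Mb of Nr1i2, the gene on mouse chromosome 16 that encodes the pregnane X receptor (PXR) and that is inactivated in Pxr-/- mice. They were chosen by position alone, as probes whose midpoint lay between positions 18248775 and 58248775 of chromosome 16 in build mm9, the build of the array files. Nr1i2 itself and 20 other probes of the window were left out by name. Of 841 probes for 531 genes or transcripts, 584 probes for 362 were well above background on at least 4 arrays and were tested, among 38703 probes for 25029 names on the whole array. By RefSeq annotation, 352 of the 584 probes matched protein-coding genes, 14 long noncoding RNAs, 3 transcribed pseudogenes and 1 a small nucleolar RNA, and 214 had no match and kept the name in the array file.

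RNA came from the colon of male mice, measured on 17 Agilent 1-colour arrays. Wild-type (WT) mice were C57BL/6J bought at 6 weeks of age. Pxr-/- mice had been backcrossed to the same strain and then bred in the laboratory for 10 years, so that genotype and colony cannot be told apart. Both were acclimatized for 2 weeks and then injected intraperitoneally each day for 4 days with corn oil alone (CONT) or with 100 mg/kg pregnenolone 16α-carbonitrile (PCN), a rodent PXR agonist, in corn oil, and were killed 6 h after the last injection. The labels gave 4 arrays for WT CONT, 5 for Pxr-/- CONT, 4 for WT PCN and 4 for Pxr-/- PCN. They do not state whether each array is a separate mouse, so p-values measure the spread between these arrays.

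PXR is a nuclear receptor that binds drugs and other xenobiotics as well as bile acids and raises transcription of detoxifying enzymes in liver and gut. A gene inactivated in embryonic stem cells is carried into another strain by repeated backcrossing, which exchanges the chromosomes of the stem cell strain for those of the recipient. DNA next to the targeted gene is separated from it only by rare recombination, so a flanking segment can keep the alleles of the stem cell strain, and genes in it can differ from those of the control mice whether or not the receptor regulates them. The strain of the stem cells is not given in the sources used here, and no genotype was measured. Comparing expression by distance from Nr1i2 asks whether genotype differences were more frequent around the targeted gene than elsewhere.

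The probes that carried the clearest differences are shown first, because the measurement in each case is hybridization to one 60-base sequence. Positions are in mm9. Sequences are those of the array files, in lower case throughout because no part of a probe is marked out. The long noncoding RNA Dubr (chr16:50728099-50728158, minus strand) and 5330426P16Rik (chr16:50719998-50720057, minus strand) carry 1 name in the array file and are neighbouring probes. AK084721 (chr16:45130250-45130309, plus strand), A130072N09Rik (chr16:45984049-45984108, minus strand) and the predicted lincRNA chr16:40471828-40472481_F (chr16:40472353-40472412, plus strand) are transcripts without a known product. For the protein-coding genes Pigx (chr16:32084515-32084574 and chr16:32087389-32087448, minus strand), Rtp4 (chr16:23613668-23613727, plus strand) and Cep97 (chr16:55905106-55905165, minus strand), the first 30 bases of each probe are given. Whether these probes lie in coding or untranslated sequence was not determined here.
Dubr: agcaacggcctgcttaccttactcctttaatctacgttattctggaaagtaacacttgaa
5330426P16Rik: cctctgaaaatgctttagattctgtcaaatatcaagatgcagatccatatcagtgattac
Pigx: ctgtaagttttgtacagctaagtgttttct
AK084721: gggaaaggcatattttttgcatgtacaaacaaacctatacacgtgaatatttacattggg
Pigx: cacataagaaagatggagacaccctcattg
A130072N09Rik: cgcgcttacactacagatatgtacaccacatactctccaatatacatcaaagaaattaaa
chr16:40471828-40472481_F: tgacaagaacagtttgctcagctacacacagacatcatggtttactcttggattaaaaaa
Rtp4: ctttcctggacatgctctgaaaatagccta
Cep97: cccacactttttagatattagctactgaac

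The labels were checked with Nr1i2. Its log2 signal was 11.97, 12.31, 12.07 and 12.01 on the WT CONT arrays and 11.61, 11.13, 10.39, 10.89 and 11.34 on the Pxr-/- CONT arrays, and the groups did not overlap. With PCN it was 12.44, 11.85, 11.10 and 11.15 in WT and 11.37, 10.95, 11.93 and 11.66 in Pxr-/-, and the groups overlapped. Whether the Nr1i2 probe lies in the deleted part is not given. Arrays in 2 pairs with different labels were nearly identical. Over 38646 probes, the SD of the log2 differences was 0.172 between the libraries labelled WT PCN 4 and Pxr-/- PCN 2 and 0.198 between those labelled WT PCN 3 and Pxr-/- CONT 2, against 0.297 for the next closest pair. Which labels are right was not settled, so results are given over the 17 arrays as labelled, and the counts in the window and the genes called also over the 13 arrays left without these 4 (WT CONT 4, Pxr-/- CONT 4, WT PCN 2, Pxr-/- PCN 3). All 5 colonocyte markers were measured, with a summed signal of 17.7 to 18.3 on the log2 scale in every group. Some single markers ranged more widely with PCN. Aqp8 was 15.41 to 16.56 in WT and 13.10 to 16.40 in Pxr-/-, and Slc26a3 14.65 to 15.01 and 13.41 to 15.20. Krt20 ranged less, at 16.44 to 16.94 and 16.36 to 16.65. Enteric neuron markers, with 5 of 5 measured, had a summed difference of 0.10 in CONT and -0.55 with PCN in the 17 arrays. Pancreas and distal colon markers varied more between arrays. In CONT, summed pancreas markers ran from 7.87 to 20.2 in WT and from 7.82 to 18.3 in Pxr-/-. With PCN they ran from 7.76 to 18.4 and from 7.79 to 8.28. Summed distal colon markers ran from 13.9 to 16.1 and from 12.9 to 15.9 in CONT. With PCN they ran from 13.9 to 16.1 and from 8.35 to 16.1. The part of all these markers in the genotype differences was not tested.

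Differences between Pxr-/- and WT were more frequent within 20 Mb of Nr1i2 than over the whole array in both treatments. With PCN over the 17 arrays, however, the share in the window was near that expected without any difference. No probe of the window passed the adjusted threshold over the 17 arrays. In CONT, 122 of the 584 probes (20.9%) had an unadjusted p under 0.05 in limma, 64 lower and 58 higher in Pxr-/-, where 12.7% of all probes tested had one. Of the 690 probes on the rest of chromosome 16, 10.9% did. The shares on the other 19 chromosomes ran from 11.1% on the X chromosome to 14.4% on chromosome 6, all below the share in the window. The median absolute difference was 0.15 on the log2 scale in the window, 0.11 over all probes and 0.09 on the rest of chromosome 16. Probes were called where the fold change was over 1.5 and the FDR did not exceed 0.05. They numbered 0 in the window and 0 over the array (0.0%), and the lowest adjusted p in the window was 0.183 by limma.

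With PCN, 29 probes of the window (4.97%) had an unadjusted p under 0.05, 19 lower and 10 higher in Pxr-/-, beside 3.28% of all probes and 1.88% on the rest of chromosome 16. The share in the window was near the 0.05 that unadjusted p-values give without any difference. The median absolute difference was 0.0885 in the window and 0.0793 over all probes, and 1 other chromosome reached that of the window. The comparison with PCN holds all of WT PCN 3, WT PCN 4 and Pxr-/- PCN 2. Without the library labelled WT PCN 4 the count in the window was 61 (10.4%), beside 4.93% of all probes. Without WT PCN 2 it was 18 (3.08%), beside 2.08% of all probes. No probe was called in the window or over the array (0.0%). Over both treatments, where the genotype differences in CONT and PCN are averaged, 112 probes (19.2%) had an unadjusted p under 0.05, 64 lower and 48 higher, beside 9.16% of all probes and 6.38% on the rest of chromosome 16, and none were called, again with 0.0% over the array.

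In the 13 arrays the share in the window was higher than over the array in each treatment too. In CONT it was 113 probes (19.3%), where all probes gave 10.1% and the rest of chromosome 16 gave 8.84%. With PCN it was 69 (11.8%), where all probes gave 7.56% and the rest of the chromosome 5.22%. Over both treatments it was 126 (21.6%), 68 lower and 58 higher, where all probes gave 13.3% and the rest of the chromosome 11.2%. No other chromosome reached the share in the window in any of the 6 comparisons of 3 contrasts and 2 sets of arrays. When each of the 17 arrays was left out in turn, the share in the window was above that over the array in 17 of 17 fits in CONT, 17 of 17 with PCN and 17 of 17 over both treatments, and likewise in 13 of 13 fits of the 13 arrays. In the 17 fits that each left out 1 of the 17 arrays, the ratio of the share in the window to that over the array had these ranges. It ran from 1.38 to 1.93 in CONT and from 1.15 to 2.12 with PCN.

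The differences were spread over the window and were not concentrated next to Nr1i2. In CONT, over the 17 arrays, 9 of 46 probes (19.6%) within 2 Mb below Nr1i2 and 5 of 25 probes within 2 Mb above it had an unadjusted p under 0.05. The highest share of the 10 intervals of distance was 26.7% of 75 probes between 5 and 10 Mb above, and the lowest was 17.4% of 46 probes between 15 and 20 Mb above, still above the 10.9% beyond 20 Mb. With PCN the 46 probes within 2 Mb below held 2.17% and the 25 within 2 Mb above held 0.0%. Spearman's rho between distance and the absolute difference over the 584 probes was between -0.08 and -0.03 in the 3 contrasts and both sets of arrays, a description over probes that share the same arrays. At the ends of the window, the 2 probes of Trmt2a just inside the lower end differed by -0.15 and 0.21 over both treatments, and the 2 of Ranbp1 just outside it by 0.13 and 0.07. The last probes inside the upper end, A_55_P2726738 and NAP065427-1, both differed by -0.07, and the first outside it, 2 of Dcbld2, by -0.06 and 0.12.

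**Figure D1:**
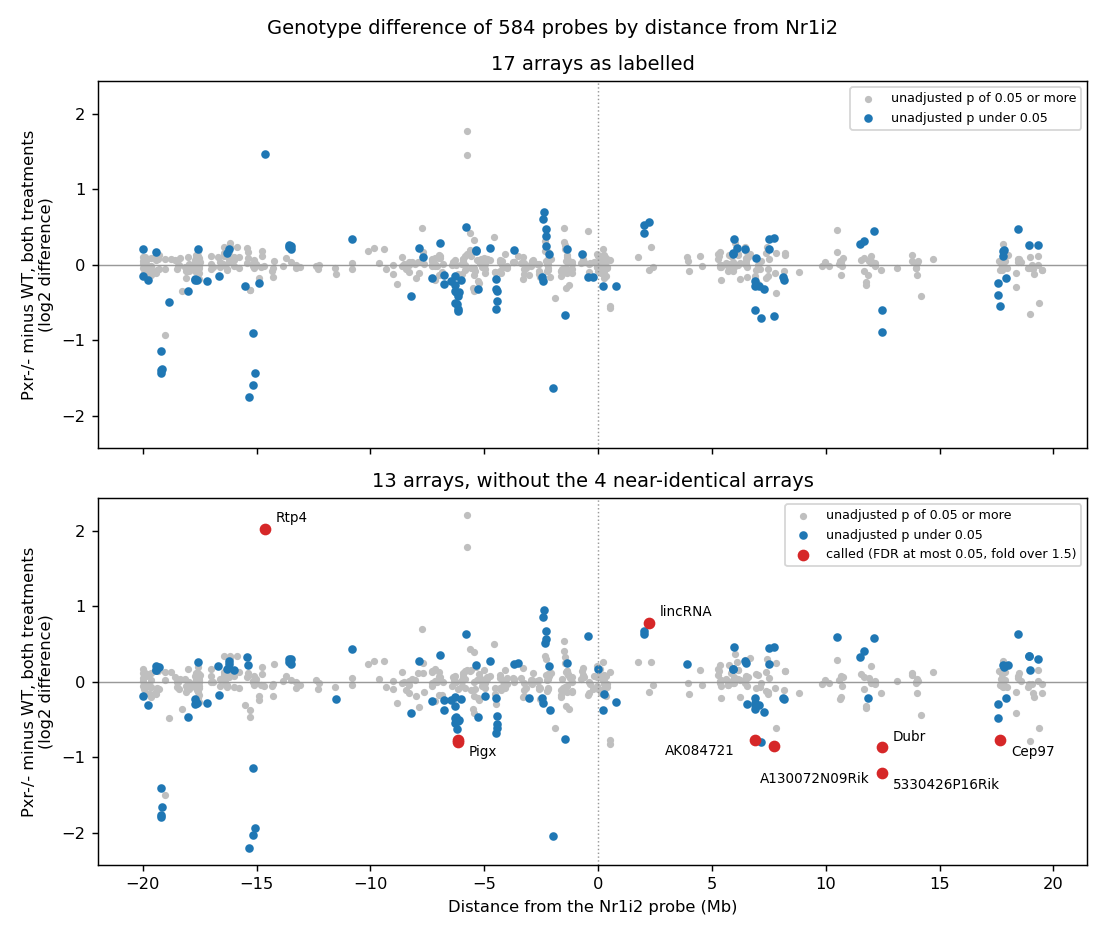
Log2 difference between Pxr-/- and WT over both treatments (vertical axis) of each probe against its distance from Nr1i2 in Mb (horizontal axis), for the 17 arrays and for the 13 arrays without the near-identical ones. Each point is 1 probe, blue with an unadjusted p under 0.05 and red where called. Differences lie on both sides of 0 along the whole window, and the 9 probes called in the 13 arrays lie between -14.6 and 17.7 Mb.

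**Figure D2:**
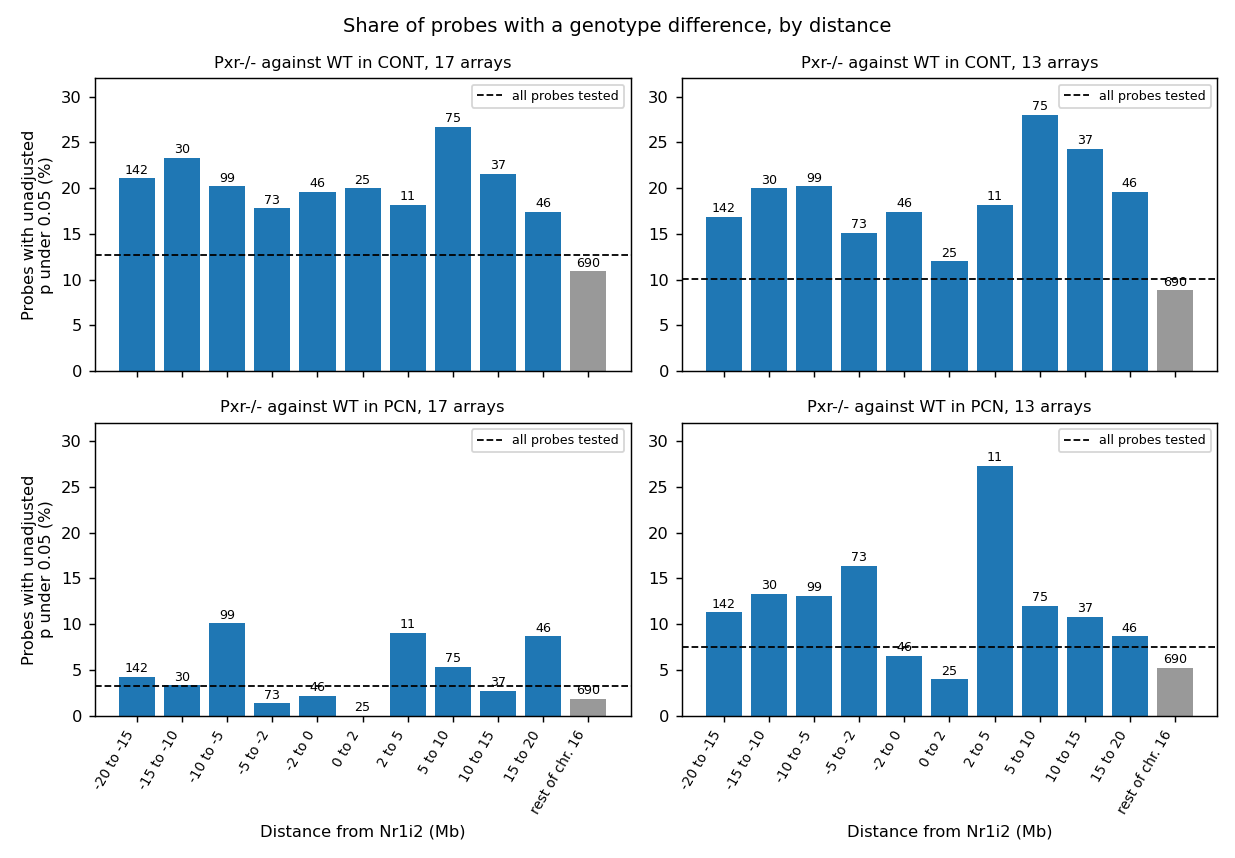
Percent of probes with an unadjusted p under 0.05 in intervals of distance from Nr1i2, in CONT and PCN, for the 17 and the 13 arrays. Numbers above the bars count the probes, grey bars are the rest of chromosome 16, and the dashed line is the share over all probes tested. In CONT over the 17 arrays every interval of the window lies above the dashed line at 12.7%, and the rest of the chromosome at 10.9% lies below it.

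For the genes that flank Nr1i2 most closely, no test passed the threshold after adjustment. They were taken by position, 4 on each side, and 7 of the 8 are described. Gsk3b, a kinase of the Wnt and insulin pathways and the nearest gene, had signals between 12.64 and 12.94 on all 17 arrays and differed by -0.06 ± 0.07 (SE) in CONT and by -0.10 ± 0.07 with PCN. Cox17, a copper chaperone of cytochrome c oxidase, ran from 15.83 to 16.41 and differed by 0.09 ± 0.11 and -0.06 ± 0.11. Popdc2, a cAMP-binding membrane protein of muscle, differed by 0.32 ± 0.18 in CONT and by -0.39 ± 0.19 with PCN. Pla1a, a phospholipase that acts on phosphatidylserine, differed by 0.08 ± 0.15 and -0.30 ± 0.16, and its PCN groups did not overlap (exact two-sided permutation p = 0.0286, the smallest that 4 against 4 arrays allow, and 0.457 after Benjamini-Hochberg adjustment over the 16 tests of these 8 genes). BC031361, AK141802 and Maats1 differed by between -0.09 and 0.21. Over the 16 tests the lowest adjusted exact permutation p was that of Pla1a.

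In the 13 arrays, 9 probes of the window were called over both treatments, out of 60 over the whole array (0.155%), and none on the rest of chromosome 16. They stood for 8 gene names, with 5330426P16Rik, Dubr, Pigx (2 probes), AK084721, A130072N09Rik and Cep97 lower in Pxr-/- and Rtp4 and the lincRNA chr16:40471828-40472481_F higher. These genes were chosen by this contrast in these arrays, and those outside the rule for named genes (Dubr, Rtp4, Cep97 and that lincRNA) were named after their values were seen, so their 13-array differences are a description. Within CONT alone and within PCN alone, no probe of the window was called in the 13 arrays (0.0% and 0.0207% over the array). Counts over the whole array are not given for the fits that left out single arrays. The count of 9 depended on single arrays. It was 0 without WT CONT 2, Pxr-/- CONT 1, Pxr-/- CONT 3 or Pxr-/- PCN 1, it was 1 without WT CONT 3, it was 2 without WT CONT 5 or WT PCN 1, it was 4 without Pxr-/- CONT 5 or Pxr-/- PCN 4, it was 5 without Pxr-/- CONT 4, and it was 20 without Pxr-/- PCN 3.

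5330426P16Rik, the transcript with the lowest adjusted p (0.0192 by limma in the 13 arrays), had log2 signals of 6.64, 6.39, 6.57 and 6.74 in WT CONT and of 5.29, 5.50, 5.27, 5.16 and 5.52 in Pxr-/- CONT. With PCN it had 6.59, 6.77, 5.16 and 5.24 on the arrays labelled WT PCN 1 to 4, and 5.25, 5.25, 6.06 and 5.28 on those labelled Pxr-/- PCN 1 to 4. All WT arrays except the near-identical WT PCN 3 and 4 were above all Pxr-/- arrays, of which Pxr-/- PCN 3 was the nearest. Over the 13 arrays it was lower in Pxr-/- by -1.21 on the log2 scale, and over the 17 by -0.89 ± 0.22 (SE). No Pxr-/- CONT array was well above background for it, so in CONT it was at least 2.28-fold higher in WT (mean signals 6.59 and 5.35, adjusted p 0.198 by limma in the 17 arrays). It was well above background on 4 WT CONT, 2 WT PCN and 1 Pxr-/- PCN arrays. It thus passed the filter only through the WT arrays, where it was high, and its lower level in Pxr-/- is a description.

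Dubr, under the same array name, had 7.35, 7.33, 7.10 and 7.48 in WT CONT and 6.64, 6.32, 6.54, 6.45 and 6.52 in Pxr-/- CONT. It had 7.54, 7.61, 6.55 and 6.35 in WT PCN and 6.32, 6.67, 7.14 and 6.32 in Pxr-/- PCN. Both CONT groups were apart, and WT PCN 3 and 4 sat with the Pxr-/- arrays, as for 5330426P16Rik. The difference over both treatments was -0.86 in the 13 arrays (adjusted p 0.0332 by limma) and -0.61 ± 0.18 (SE) in the 17.

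Pigx encodes a subunit of the mannosyltransferase that builds the glycosylphosphatidylinositol anchor of membrane proteins. Its brighter probe had 11.50, 11.50, 11.58 and 11.34 in WT CONT and 10.49, 11.07, 10.45, 11.07 and 10.55 in Pxr-/- CONT, with no overlap. With PCN it had 11.39, 11.59, 11.04 and 10.52 in WT and 10.43, 10.50, 11.05 and 10.59 in Pxr-/-, where WT PCN 1 and 2 were above every Pxr-/- array. Its 2 probes differed by -0.80 and -0.77 in the 13 arrays (adjusted p 0.0294 and 0.0339 by limma) and by -0.62 and -0.59 in the 17.

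Rtp4, a chaperone of taste and opioid receptors that interferon induces, had the largest difference of the 8 genes. Its signals were 11.06, 11.66, 10.74 and 11.63 in WT CONT and 12.60, 13.72, 13.62, 13.27 and 12.05 in Pxr-/- CONT. With PCN they were 11.45, 10.26, 13.75 and 12.61 in WT and 13.51, 12.57, 13.12 and 13.11 in Pxr-/-. CONT groups did not overlap, and with PCN the arrays labelled WT PCN 3 and 4 were within or above the Pxr-/- range. The difference was 2.02 in the 13 arrays (adjusted p 0.0339 by limma) and 1.47 ± 0.40 (SE) in the 17. The interferon response markers were higher in Pxr-/- beside it, with all 6 measured and their summed log2 signal 14.2 to 14.7 in WT CONT, 15.1 to 17.3 in Pxr-/- CONT, 13.9 to 17.2 in WT PCN and 15.8 to 16.7 in Pxr-/- PCN. Their part in the Rtp4 difference was not tested.

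A130072N09Rik had 7.65, 7.88, 7.42 and 7.72 in WT CONT and 6.38, 6.46, 6.64, 6.53 and 6.54 in Pxr-/- CONT. With PCN it had 7.73, 7.45, 6.62 and 6.40 in WT and 6.79, 6.45, 7.52 and 6.63 in Pxr-/-. The CONT groups did not overlap, while Pxr-/- PCN 3 lay among the WT arrays. AK084721 had 6.38, 6.32, 6.49 and 6.46 in WT CONT, 5.85, 5.60, 5.73, 5.97 and 5.65 in Pxr-/- CONT, 6.83, 6.32, 5.56 and 5.94 in WT PCN, and 5.70, 5.69, 5.78 and 5.45 in Pxr-/- PCN. It was well above background on 2 of the 4 Pxr-/- PCN arrays. In the 13 arrays these transcripts differed by -0.86 and -0.78 (adjusted p 0.0339 and 0.0293 by limma).

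The lincRNA chr16:40471828-40472481_F, 2.22 Mb above Nr1i2, had 5.49, 5.35, 5.44 and 5.52 in WT CONT and 6.15, 6.01, 6.31, 6.03 and 6.31 in Pxr-/- CONT. It had 5.50, 5.28, 6.09 and 6.68 in WT PCN and 5.94, 6.53, 5.99 and 6.68 in Pxr-/- PCN. It was well above background on 1 of 4 WT CONT arrays and on 3 of 4 WT PCN arrays, of which WT PCN 3 and 4 lay among the Pxr-/- arrays. Its neighbour chr16:40267386-40268181_F, 2.02 Mb above Nr1i2, was well above background on 4 of 5 Pxr-/- CONT arrays and on none of the WT CONT arrays, and was at least 1.41-fold higher in Pxr-/- (mean signals 5.82 and 5.26, adjusted p 0.225 by limma in the 17 arrays). With PCN it was well above background on 3 Pxr-/- arrays and 1 WT array. This neighbour thus passed the filter only through the Pxr-/- arrays, where it was high. Its CONT and PCN groups did not overlap over the 17 arrays. Cep97, a centriole protein that restrains cilium formation, had 6.59, 6.52, 6.52 and 6.73 in WT CONT, 6.40, 6.23, 6.30, 6.16 and 6.47 in Pxr-/- CONT, 7.94, 7.19, 6.21 and 6.56 in WT PCN, and 6.17, 6.13, 6.47 and 6.30 in Pxr-/- PCN. WT PCN 1 and 2 were the highest of all arrays, and a second Cep97 probe differed by -0.04 in the 13 arrays where the first differed by -0.77.

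**Figure D3:**
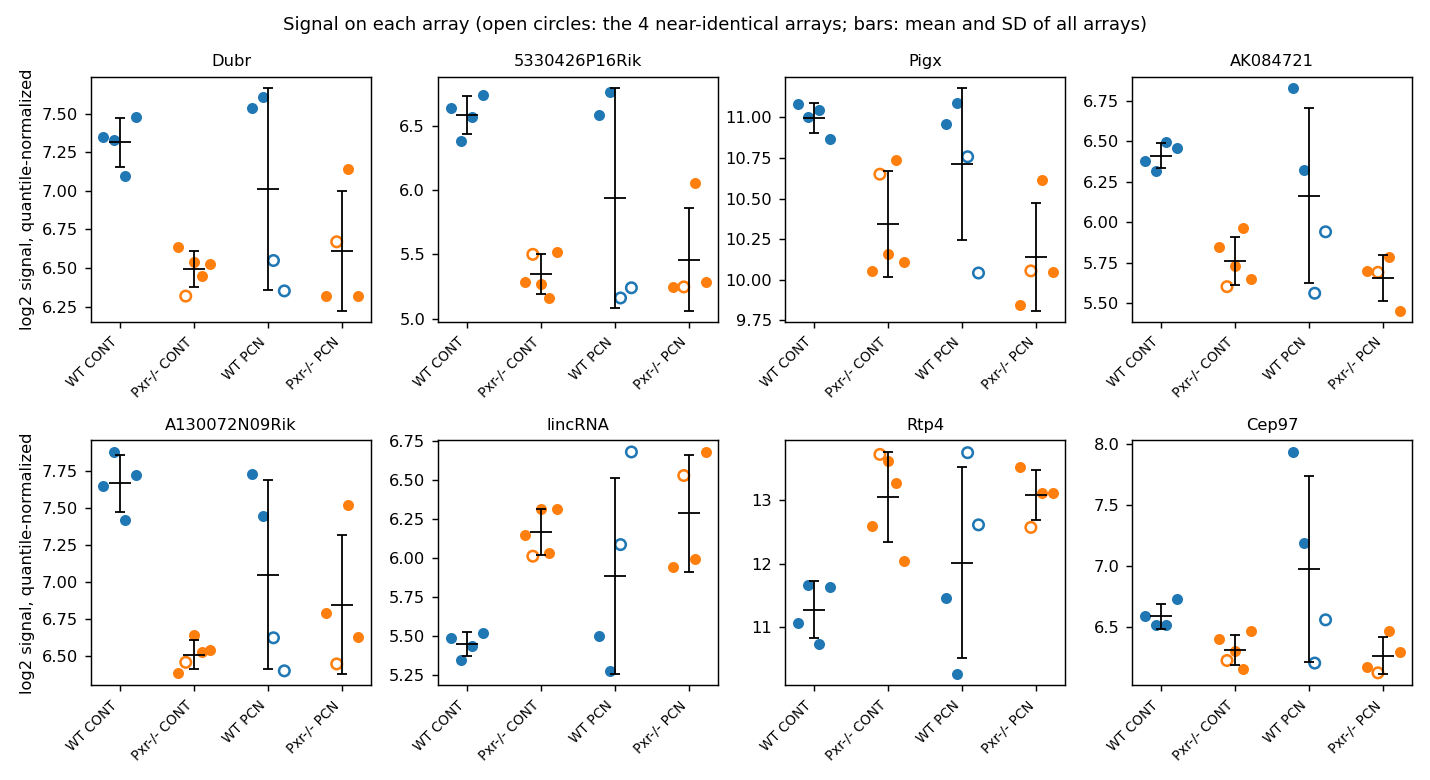
Log2 signal of the 8 genes called over both treatments in the 13 arrays, on each of the 17 arrays by group, for Pigx by the dimmer of its 2 probes. Open circles are the 4 near-identical arrays, and bars are the mean ± SD of all arrays of a group. In CONT the filled WT and Pxr-/- points do not overlap for any gene, and the open WT PCN circles mostly lie nearer the Pxr-/- arrays.

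The 4 near-identical arrays had no part in choosing these 9 probes, so their position is a separate measurement. Each was placed by whether its signal was nearer the mean of the Pxr-/- or of the WT arrays among the 13. The library labelled Pxr-/- PCN 2 was nearer the Pxr-/- mean for 9 of 9 probes and its near-copy WT PCN 4 for 9 of 9. The library labelled Pxr-/- CONT 2 was nearer the Pxr-/- mean for 8 of 9 and its near-copy WT PCN 3 for 8 of 9. As the 4 arrays hold only 2 profiles, these are 2 placements, both on the Pxr-/- side. Pxr-/- PCN 3, which was used in the choice, lay between the groups, nearer Pxr-/- for 5 probes and nearer WT for 4, with a median of 52.3% of the way from the WT to the Pxr-/- mean.

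Arrays were washed in 2 baths. Within each bath in CONT, the differences of the 8 genes had the same direction, as for A130072N09Rik (-1.18 and -1.11) and Rtp4 (2.08 and 1.60). With PCN the second bath, which holds 1 WT PCN array, gave -1.02 and 1.86 for these genes, and the first, which holds 3 of the near-identical arrays, gave 0.16 and 0.64.

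Genotype differences were then set side by side between CONT and PCN, which share no array as labelled. In the 13 arrays, 47 probes of the window had an unadjusted p under 0.05 in both treatments with the same direction. They were 41.6% of the 113 probes chosen in CONT and 68.1% of the 69 chosen with PCN, where the same shares over all probes tested were 22.8% and 30.3%, and on the rest of chromosome 16 they were 9.84% and 16.7%. Of the probes chosen with PCN, 66 of 69 (95.7%) had the same direction in CONT, and 80.0% over all probes. Chosen in CONT, 95 of 113 (84.1%) kept their direction with PCN, close to the 82.7% over all probes. These shares are descriptions, since neighbouring probes and probes of the same gene are not independent.

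**Figure D4:**
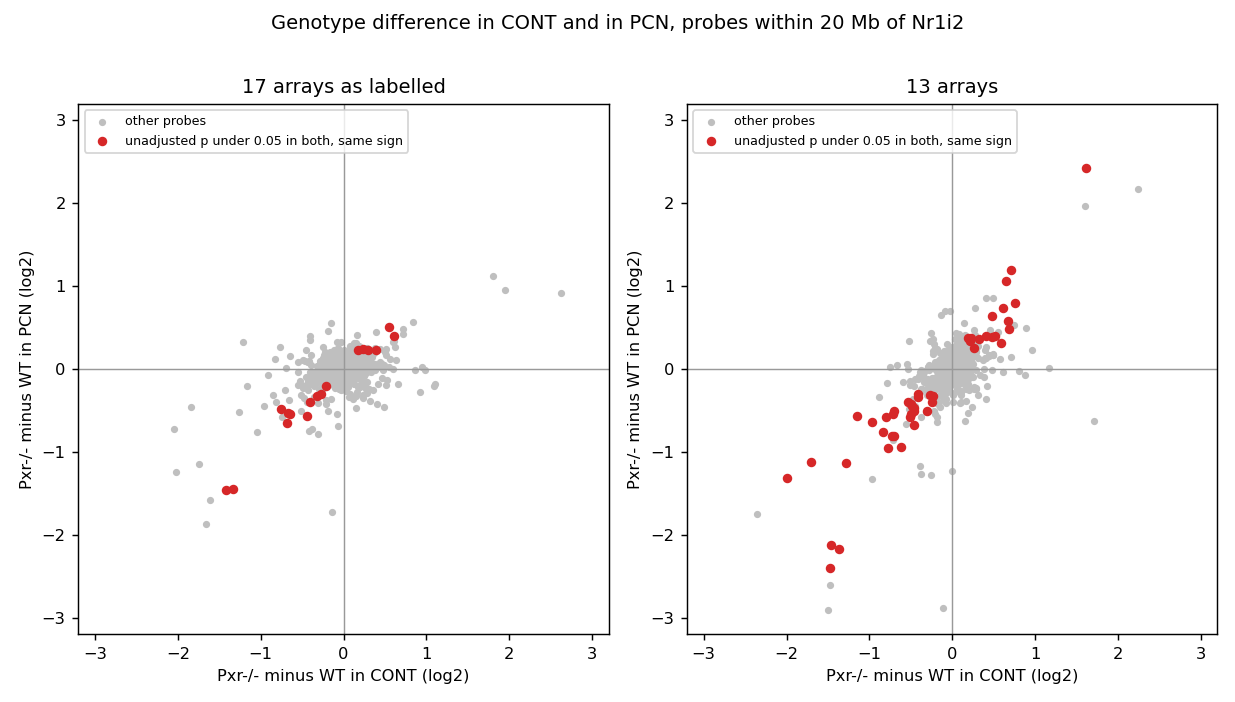
Log2 difference between Pxr-/- and WT in PCN (vertical axis) against that in CONT (horizontal axis) for each probe of the window, in the 17 and in the 13 arrays. Red points have an unadjusted p under 0.05 in both treatments with the same direction. They number 17 in the 17 arrays and 47 in the 13.

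A stretch between 6.5 and 6 Mb below Nr1i2 held differences in one direction. It was picked after the values were seen and is a description. Of its 18 probes, 12 had an unadjusted p under 0.05 over both treatments, all 12 lower in Pxr-/-, in the 17 and in the 13 arrays alike, and they stood for 10 genes. The shares were 19.2% and 21.6% over the whole window and 9.16% and 13.3% over all probes tested. Pak2, a kinase that the GTPases Rac and Cdc42 activate, had signals of 12.42, 12.27, 12.27 and 12.39 in WT CONT and of 11.64, 12.01, 11.73, 12.14 and 11.69 in Pxr-/- CONT, without overlap, and its 2 probes differed by -0.36 and -0.52 over both treatments. 0610012G03Rik differed by -0.50, Cep19, a centrosome and cilium protein, by -0.41, Nrros, a partner of latent TGF-β in myeloid cells, by -0.37, and Senp5, a SUMO protease, by -0.35. Pigz, which adds a mannose to the glycosylphosphatidylinositol anchor, differed by -0.27, and Fbxo45, a ubiquitin ligase subunit, by -0.21. For Dlg1, a scaffold of cell junctions, and Ncbp2, a subunit of the nuclear cap-binding complex, 1 probe differed by -0.22 and -0.15, and their other probes differed by between -0.01 and 0.06. Just beyond the stretch, Tctex1d2, a dynein light chain of cilia, was higher by 0.50 and Bdh1, which interconverts ketone bodies, lower by -0.26 for its brighter probe. None of these but Pigx was called in either set of arrays. Further stretches, likewise a description, held differences in both directions over both treatments in the 17 arrays. Between 6.5 and 8 Mb above Nr1i2, 11 of 31 probes had an unadjusted p under 0.05, 7 lower and 4 higher in Pxr-/-. Between 11 and 13 Mb above it, 5 of 18 probes did, 2 lower and 3 higher.

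In CONT, the WT and Pxr-/- arrays did not overlap for 71 of the 584 probes (12.2%), beside 5.39% of all probes tested and 5.80% on the rest of chromosome 16, and with PCN for 10 (1.71%), beside 1.48% of all probes. The named genes that follow had non-overlapping CONT groups. Their exact two-sided permutation p was 0.0159, the smallest that 4 against 5 arrays allow. They were named for a small p in this same contrast of these arrays, so that p is a description and no separate support. None had an adjusted p below 0.183 by limma over the 17 arrays. The largest differences among the named genes were those of ENSMUST00000103746, at 14.32 ± 0.31 (SD, n = 4) in WT CONT and 12.28 ± 0.36 (SD, n = 5) in Pxr-/- CONT, and ENSMUST00000200568, at 15.98 ± 0.52 and 14.14 ± 0.51. They are antibody light chain transcripts, of which the choice of members by name kept 5 probes, and the summed B and plasma cell markers, with 4 of 4 measured, differed by 0.08 in CONT and -0.62 with PCN. Gm609 differed by -0.96 in CONT and -0.45 with PCN. The nucleotide-sugar transporter family gene Slc35a5 differed by -0.43 and -0.14. Igsf11, an adhesion molecule 0.78 Mb above Nr1i2, differed by -0.55 in CONT and -0.03 with PCN, and was well above background on 1 of 5 Pxr-/- CONT arrays. Ift57, of the intraflagellar transport complex, was higher by 0.49 in CONT and by 0.05 with PCN, Plcxd2 by 0.50 and 0.21, and A730021G18Rik by 0.62 and 0.27. Gm15658, 4.48 Mb below, differed by -0.86 and -0.32. Beside it the membrane mucin Muc13, named after its values were seen, differed by -0.49 in CONT for its brighter probe and by -0.71 for the other. The difference between CONT and PCN itself was not past the threshold for any of the named genes, with a lowest adjusted interaction p of 0.848 in the 17 and 1.0 in the 13 arrays by limma.

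By function, genes of the window were set into 12 lists, each gene by its brightest probe. No list held a called gene, where 0.155% of all probes were called over both treatments in the 13 arrays. The median absolute difference over both treatments was 0.07 over all genes. All 3 interferon-stimulated ADP-ribosylation genes were higher in Pxr-/-, with Parp14 at 0.60, Parp9 at 0.47 and Dtx3l at 0.32, and Parp14 and Parp9 had an unadjusted p under 0.05 in the 17 arrays and all 3 in the 13. Interferon markers differed the same way, by a summed 1.86 log2 units in CONT and 0.94 with PCN in the 17 arrays and by 1.63 and 2.31 in the 13, and their part in these differences was not tested. Of 11 plasma proteins made mainly by liver or fat, 9 were measured, 7 lower and 2 higher in Pxr-/-, with a median of -0.34. Ahsg (fetuin A) differed by -1.76 ± 0.67 (SE), Kng1 (kininogen) by -1.59 ± 0.54 and Adipoq (adiponectin) by -1.44. Ahsg was 11.47 on WT CONT 5 and 5.57 to 5.90 on the other WT CONT arrays. Liver markers, with 5 of 6 measured, had a summed difference of -1.72 in CONT and -0.54 with PCN in the 17 arrays and of -1.55 and -1.51 in the 13. With PCN in the 17 arrays Ttr, the brightest of them, differed by 0.03. Alb, Ahsg, Fgb and Serpina1a then differed by -1.97, -1.86, -1.70 and -1.62. Adipocyte markers, with 4 of 4 measured, had -2.09 and -1.25 in the 17 arrays and -1.91 and -2.37 in the 13. Their part in these differences was not tested. Ahsg and Adipoq are themselves on those marker lists. In bulk tissue, fewer cells of a type and less RNA per cell cannot be told apart.

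Counts of the other lists are over both treatments in the 17 arrays unless stated, where 9.16% of all probes tested had an unadjusted p under 0.05. Of 8 translation and ribosome genes, 1 had such a p, Lsg1 at 0.10, and Rpl35a, a ribosomal protein, differed by 0.02 ± 0.04 (SE). Among 11 mitochondrial genes, Bdh1 and Hspbap1 (-0.22) were lower, and their median absolute difference was 0.04. Among 12 genes of the secretory pathway and glycosylation, Ufd1 was the 1 with an unadjusted p under 0.05. Of 9 genes of ubiquitin, SUMO and the proteasome, Fbxo45 and Senp5 were lower, both in the stretch below Nr1i2. Of 10 kinases and signalling genes only Pak2, in the same stretch, had an unadjusted p under 0.05. Of 14 lymphocyte and myeloid surface receptors measured, 0 did in the 17 arrays and 3 in the 13 (Cd200r1 and Il1rap lower, Trat1 higher). Trat1, a T cell receptor adaptor, was well above background on 1 of 4 WT CONT arrays and on all 5 Pxr-/- CONT arrays, of which replicate 5 stood apart at 7.32, with the others at 6.15 to 6.46. Of 11 immune signalling and transcription genes, Nfkbiz, an inducible regulator of NF-κB target genes, was lower by -0.40. Of 11 genes of smooth muscle, matrix and adhesion, Abi3bp (0.47) and Phldb2 were higher and Dlg1 lower. Of 8 neuronal and axon genes, Igsf11 was lower, and of 13 genes of epithelial transport and the mucosal surface, Atp13a3 was higher by 0.22. The bile acid exporter subunit Slc51a differed by 1.77 ± 1.39 (SE), within its spread.

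Leaving out the interferon and plasma protein lists, Rtp4 and antibody light chain probes, 28 in all, left 556 probes. The share with an unadjusted p under 0.05 was then 19.8% in CONT, 4.86% with PCN and 17.6% over both treatments in the 17 arrays, and 18.5%, 10.1% and 20.1% in the 13, where 8 probes were called. Over all probes the shares were 12.7%, 3.28% and 9.16%, and 10.1%, 7.56% and 13.3% in the 13, where 0.155% were called over both treatments. Genes of these kinds elsewhere on the array were not left out, so the part of these signals in the shares was not tested.

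No probe of the window was called for the effect of PCN itself. In WT, 43 probes (7.36%) had an unadjusted p under 0.05 for PCN against CONT over the 17 arrays, beside 4.66% of all probes, and 29 (4.97%) in the 13, beside 4.68%. In Pxr-/-, 46 (7.88%) did, beside 7.35%, and 42 (7.19%) in the 13, beside 7.19%. For the genotype by PCN interaction the counts were 36 (6.16%), beside 5.38%, and 16 (2.74%), beside 2.95%. By limma, 0.0%, 0.00517% and 0.0% of all probes were called over the 17 arrays and 0.0491%, 0.0517% and 0.00258% over the 13.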

How the data were processed

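Cy3-labelled colon RNA was hybridized to 1-colour Agilent arrays, and per the file headers spots were read with Agilent Feature Extraction 10.10.1.1. The deposited files give the median intensity of each spot without normalization between arrays, with 0 or 1 flags for outliers and for spots well above background. A table of log2 values was deposited by the authors too, corrected for wash bath per the methods, which served as an alternative. Liver arrays, on which the article reports, were not analysed here.

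From 59305 spots, those not outliers were log2-transformed and quantile-normalized between arrays, and replicate spots averaged (56605 probes). Probes well above background on at least 4 arrays were fitted with limma 3.58.1 in R 4.3.3, with the 4 groups and the wash bath over all 17 arrays, and Benjamini-Hochberg adjustment over all 38703 probes. The number of arrays limits the precision. Fits were tested on simulated data. In each genotype contrast the 12 genes with the smallest adjusted p were named, besides the 4 nearest to Nr1i2 on each side and, per function list, the brightest and the 2 with the largest differences. The members and lists were chosen with earlier results of these data known. Columns not used numbered 0. Alternatives were 14 in kind, besides those added after the data were seen. One of the genes nearest to Nr1i2 is not reported here.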

Additional observations from a re-analysis of the deposited data

Results flagged for a closer look

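Over the named genes, 284 groups of 4 or 5 arrays were searched for an array far from the others, and 19 groups had one, on 11 different arrays. Chance gives about 1 in 20 groups. Values are log2 signals, and the range of the other arrays of the group follows each.

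In the group labelled Pxr-/- PCN, replicate 3 was the highest for 5330426P16Rik (6.06, others 5.25 to 5.28), for Lsg1 (11.31, others 11.10 to 11.13) and for the lincRNA chr16:31321192-31333486_F (7.15, others 6.15 to 6.22). Replicate 2 was the highest for Dnajb11 (13.48, others 13.10 to 13.15) and for the lincRNA chr16:21794415-21815365_F (8.39, others 7.73 to 7.75). Replicate 4 was the highest for Fgf12 (6.78, others 5.94 to 5.99) and for the lincRNA chr16:40267386-40268181_F (6.38, others 5.74 to 5.78).

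In WT CONT, replicate 4 was the lowest for A730021G18Rik (6.26, others 6.46 to 6.48) and the highest for BC031361 (6.73, others 6.25 to 6.30), Mylk (15.17, others 14.39 to 14.47) and Popdc2 (10.36, others 9.64 to 9.69). Replicate 5 was the highest for Ahsg (11.47, others 5.57 to 5.90), and replicate 2 the lowest for Hspbap1 (9.29, others 9.43 to 9.45).

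In Pxr-/- CONT, replicate 1 was the highest for Ephb3 (14.27, others 13.63 to 13.81), replicate 4 for Fgf12 (6.88, others 6.34 to 6.45) and replicate 5 for Trat1 (7.32, others 6.15 to 6.46). In WT PCN, replicate 1 was the highest for Alcam (12.83, others 11.99 to 12.13) and the lowest for Psmd2 (13.34, others 13.48 to 13.50), and replicate 2 was the lowest for Atp13a3 (9.80, others 10.09 to 10.12).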

How the results depend on the processing

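With 584 probes in the window, the counts of called probes over the 17 arrays stayed at 0 under most alternatives. Fitting only the groups of the contrast gave 4 in CONT (5330426P16Rik, A130072N09Rik, Gm609 and ENSMUST00000103746, all lower in Pxr-/-) and 1 for PCN in Pxr-/- (Retnlg, higher with PCN), and leaving out the 4 near-identical arrays gave 9 over both treatments. Leaving out 1 array in turn gave 0 to 1 called probes in CONT, 0 to 1 for PCN in WT (1 without WT PCN 3), and 0 to 0 with PCN, over both treatments, for PCN in Pxr-/- and for the interaction. The probes with an unadjusted p under 0.05 numbered 95 to 147 in CONT, 18 to 61 with PCN and 89 to 126 over both treatments, and in the 13 arrays 72 to 121 (72 without Pxr-/- CONT 3), 53 to 95 and 101 to 135. The median absolute difference was 0.138 to 0.179 in CONT and 0.0754 to 0.114 with PCN. With 1 probe per gene, fewer probes were tested and the counts were 75, 17 and 63, and without the near-identical arrays the count with PCN was 69. The 9 called probes of the 13 arrays became 0 to 20 when 1 array was left out, 16 with the authors' log2 values and 14 with no wash bath term. Arrays of different groups with a shared replicate number had a median r of 0.10 between their deviations from the group means (22 pairs, lowest -0.334, 11 above 0.1). Other pairs of different groups had a median of -0.05 (86 pairs, lowest -0.486, 30 above 0.1). Whether the replicate number pairs the arrays was not settled. With it as a block, 0 probes were called in each comparison. Those with an unadjusted p under 0.05 then numbered 142 in CONT, 43 with PCN and 113 over both treatments. Of 3932 differences of the 66 named genes in CONT and PCN under the alternatives, 3890 lay within 1 SD of the reported value and 42 moved by more. None of the reported values was a called one, so no change of sign from a called value could arise. In every fit run, the share of probes with an unadjusted p under 0.05 in the window was above that over the array in CONT, with PCN and over both treatments. Counts called over the whole array in these alternative fits are not given, so changes in the called counts of the window cannot be set against those of the array. The cause of the changes under the alternatives was not tested. The limits are the 4 near-identical arrays, whose right labels are not known, the 2 WT PCN arrays left without them, and the colony, which cannot be told apart from genotype. Probe hybridization over a sequence difference between strains was not tested.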
